A study of Mus musculus with 8 samples.

Results

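Cholesterol synthesis was followed through 7 genes in tumor-associated macrophages (TAMs): Hmgcs1, Idi1, Fdft1, Sqle, Lss and Cyp51, which encode enzymes of the pathway, and Insig1, which encodes its sterol-sensing brake. They were taken by gene symbol from 21051 genes listed in the deposited tables, of which 12412 were abundant enough to be tested, all 7 of them included. No uptake gene was among the 7, so uptake is described from other genes below. The study asked how the TAMs of mice lacking collectin-11 (CL-11, encoded by Colec11) differ from those of WT mice, and measured RNA in CD45+F4/80+ cells sorted by FACS from B16 melanomas 14 days after injection, from 4 WT and 4 Colec11-/- mice. None of the 7 genes differed between genotypes beyond the spread between libraries, whereas all 7 were at their lowest in the library of replicate 4 of each genotype.

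The WT group (TAM-WT) consisted of littermates of the Colec11-/- group (TAM-KO). Both were C57BL/6, the TAM-KO mice being homozygous for a deletion back-crossed to that strain for 10 generations or more, and were male and 8 to 10 weeks old unless the study said otherwise. All carried a subcutaneous B16 tumor, a pigmented melanoma line of C57BL/6 origin, and no other treatment is named. The deletion was present in every cell of the host and not only in TAMs, while the injected B16 cells did not carry it. The sort selected 2 surface markers, and what is measured is the RNA of the whole sorted pool. In such bulk samples, fewer cells of a type and less RNA per cell cannot be told apart.

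Cells make cholesterol from acetyl-CoA by the mevalonate pathway. When sterols in the endoplasmic reticulum are scarce, SCAP carries SREBP2 to the Golgi, where it is cleaved to release a transcription factor that raises the genes of synthesis and of lipoprotein uptake. When sterols are plentiful, INSIG proteins hold SCAP and SREBP2 back, and oxysterols activate the liver X receptors (LXRs), which raise the efflux genes Abca1 and Abcg1 and the gene for MYLIP, a ubiquitin ligase that limits lipoprotein uptake. Macrophages rely on this balance because they take in cholesterol from engulfed cells and lipoproteins. INSIG1 is itself a target of SREBP2, so its mRNA tends to follow that of the enzymes.

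The 7 complete libraries held 16225362 to 17280267 reads on genes. In TAM-KO replicate 1, 5311 consecutive genes are missing from its table, among them Fdft1, Lss and Cyp51. For these genes no value of that library was found in the table of the whole series either, so they rest on 3 TAM-KO libraries, and the other 4 on 4. Of the macrophage markers 10 of 10 were detected, with summed levels of 7163 to 8969 FPKM in TAM-WT and 8057 to 8704 in replicates 2 to 4 of TAM-KO. FPKM are fragments per kilobase of transcript, scaled to the mapped fragments of the library. Genes of pigment cells were also abundant: the 7 melanoma cell markers summed to 2640, 4382, 2010 and 1958 FPKM in TAM-WT replicates 1 to 4 and to 5057, 4742 and 3817 in replicates 2 to 4 of TAM-KO. All 7 had a fold change above 1 in TAM-KO, beside 6244 of 12412 genes tested, with a median log2 fold change of 0.59. Of these markers 1 passed the test, beside 9.92% of all genes tested. It was Sox10, which did not pass without both replicates 4 (adjusted p = 0.0889, edgeR's quasi-likelihood test). T cell and NK cell markers, 11 of 12 of which were listed, summed to 2.29 to 30.6 FPKM in TAM-WT and 31.6 to 100.4 in replicates 2 to 4 of TAM-KO. B16 cells and lymphocytes also make cholesterol, and the part of their RNA in the values below was not tested. Colec11 had 0 to 4 counts per library in TAM-WT and 1 in each TAM-KO library, too few to check the genotype. Apoe, which encodes the apolipoprotein of macrophage efflux, had 2886 to 3314 FPKM in TAM-WT replicates 1 to 3, but 497 in TAM-WT replicate 4, near the 435 to 454 of the TAM-KO libraries. Results are therefore also given without replicate 4.

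The promoters are shown first, as background, because SREBP2 acts through its target promoters. Whether it shaped the levels in these libraries was not tested. RefSeq promoter entries on GRCm38.p6 were found for 5 of the 7 genes, with none for Sqle and Fdft1. Each sequence is read 5′ to 3′ on the strand of the gene and ends at the base before the annotated gene, and capitals mark the motifs found. The start in the Lss promoter entry lies inside the annotated gene, and the last 40 bases before it, which belong to the gene, are not shown. The windows are chr13:119690201-119690350 (plus strand) for Hmgcs1, chr13:8885456-8885605 (plus) for Idi1, chr10:76531455-76531564 (plus) for Lss, chr5:4104698-4104847 (minus) for Cyp51, and chr5:28071162-28071411 (plus) for Insig1.
Hmgcs1: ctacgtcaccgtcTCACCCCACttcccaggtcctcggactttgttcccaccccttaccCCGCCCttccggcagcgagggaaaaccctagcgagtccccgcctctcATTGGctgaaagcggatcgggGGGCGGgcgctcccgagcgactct
Idi1: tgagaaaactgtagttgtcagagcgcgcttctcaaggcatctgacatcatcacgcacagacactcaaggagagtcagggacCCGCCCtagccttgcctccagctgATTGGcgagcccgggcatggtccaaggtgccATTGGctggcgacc
Lss: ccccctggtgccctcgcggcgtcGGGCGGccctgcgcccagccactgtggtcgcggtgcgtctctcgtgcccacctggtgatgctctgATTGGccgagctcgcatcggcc
Cyp51: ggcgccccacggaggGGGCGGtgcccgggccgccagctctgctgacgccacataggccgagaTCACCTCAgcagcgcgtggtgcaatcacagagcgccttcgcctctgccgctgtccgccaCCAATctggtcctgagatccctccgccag
Insig1: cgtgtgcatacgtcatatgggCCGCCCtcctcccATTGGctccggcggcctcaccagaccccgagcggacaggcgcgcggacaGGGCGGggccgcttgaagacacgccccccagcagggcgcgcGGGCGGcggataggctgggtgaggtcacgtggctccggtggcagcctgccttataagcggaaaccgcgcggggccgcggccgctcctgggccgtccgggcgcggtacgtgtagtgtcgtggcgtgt

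Motifs were searched on both strands in the 250 bases before the start of each promoter entry. The core of the sterol regulatory element, TCACNCCAC, was found in Hmgcs1, 137 bases before its start, and in 1.05% of 32841 promoters of the RefSeq table. A looser form, TCACNNCA, which every match of the core also fits, was found in Hmgcs1 and Cyp51 and in 11.4% of promoters. All 5 promoters held ATTGG, the inverted CCAAT box that the SREBP partner NF-Y reads, and GGGCGG, the GC box read by Sp1. These short motifs were found in 33.9% and 32.7% of promoters. The counts describe letters in these windows and say nothing of binding in TAMs.

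The first of the 7 genes in pathway order was Hmgcs1 (NCBI Gene 208715), which encodes the synthase that makes HMG-CoA. It lies on GRCm38.p6 at chr13:119690351-119708260 by RefSeq. Its level was 43.1, 41.9, 36.1 and 30.5 FPKM in replicates 1 to 4 of TAM-WT, against 48.0, 44.3, 41.3 and 32.6 in replicates 1 to 4 of TAM-KO. In each group replicate 4 was lowest, and the groups overlapped, with means of 37.9 ± 5.81 (SD, n = 4) and 41.6 ± 6.57 (SD, n = 4). The log2 fold change of TAM-KO against TAM-WT was 0.02 ± 0.12 (SE, adjusted p = 0.918, edgeR's quasi-likelihood test), and its 95% interval ran from 0.846-fold to 1.22-fold. These fold changes rest on counts scaled by TMM (trimmed mean of M values), and for all 7 genes they were lower than the ratio of the FPKM means.

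Idi1 (NCBI Gene 319554; chr13:8885606-8892396) encodes the isomerase that turns isopentenyl diphosphate into its reactive partner. It had 24.5, 25.6, 21.9 and 17.96 FPKM in replicates 1 to 4 of TAM-WT, against 27.1, 29.7, 27.6 and 19.8 in replicates 1 to 4 of TAM-KO. TAM-KO replicates 1 to 3 lay above every TAM-WT library, but TAM-KO replicate 4 lay below 3 of them, so the groups overlapped. The log2 fold change was 0.10 ± 0.12 (SE, adjusted p = 0.601), and the 95% interval ran from 0.891-fold to 1.29-fold. Fdft1 (NCBI Gene 14137; chr14:63145150-63181687) encodes squalene synthase, which commits farnesyl diphosphate to sterols. Its level was 19.3, 20.2, 19.3 and 14.3 FPKM in replicates 1 to 4 of TAM-WT, against 23.5, 21.5 and 17.4 in replicates 2 to 4 of TAM-KO. TAM-WT replicate 4 stood below the other 3 TAM-WT libraries, which lay within 1 FPKM of each other. The log2 fold change was 0.08 ± 0.13 (SE, adjusted p = 0.709), with an interval from 0.857-fold to 1.31-fold.

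**Figure D1:**
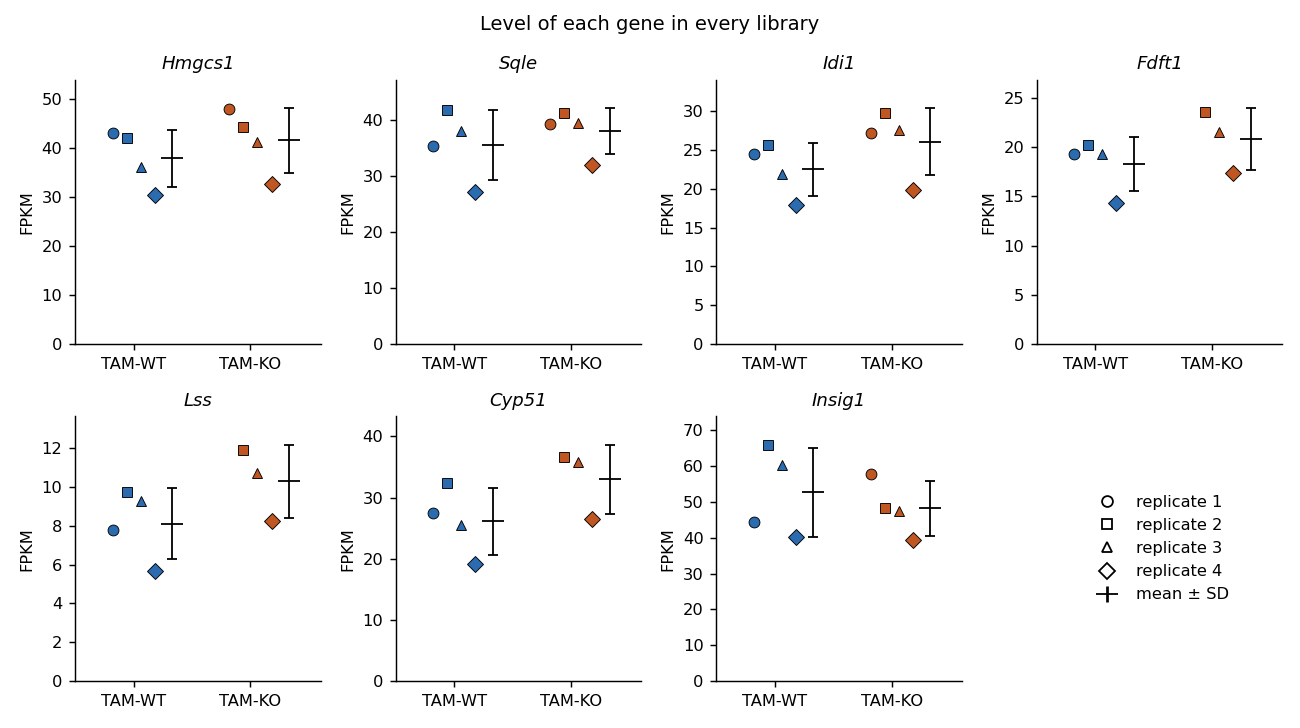
Level of each of the 7 genes in FPKM (vertical axes, from 0) in every library, by genotype, with a marker shape for each replicate and the mean ± SD beside the points. Replicate 4, the diamond, is the lowest point of both groups in every panel, and the groups overlap in all 7; Fdft1, Lss and Cyp51 have 3 TAM-KO points.

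Sqle (NCBI Gene 20775; chr15:59315092-59331193) encodes squalene epoxidase, a rate-limiting step of the later pathway. It had 35.4, 41.8, 38.1 and 27.1 FPKM in replicates 1 to 4 of TAM-WT, against 39.3, 41.2, 39.5 and 32.0 in replicates 1 to 4 of TAM-KO. Its groups overlapped, and its log2 fold change was -0.01 ± 0.12 (SE, adjusted p = 0.952), with an interval from 0.823-fold to 1.19-fold. The sign of this value turned to 0.07 when counts were scaled to total reads. Lss (NCBI Gene 16987; chr10:76531565-76557139) encodes lanosterol synthase, which folds squalene epoxide into the first sterol. Its level was 7.76, 9.72, 9.30 and 5.67 FPKM in replicates 1 to 4 of TAM-WT, against 11.9, 10.7 and 8.24 in replicates 2 to 4 of TAM-KO. TAM-KO replicates 2 and 3 were above all TAM-WT libraries by FPKM, while TAM-KO replicate 4 was not. On TMM-scaled counts the log2 fold change was 0.04 ± 0.19 (SE, adjusted p = 0.914), the interval running from 0.758-fold to 1.39-fold, and without TAM-WT replicate 4 it was -0.10. It was 0.15 with total-read scaling and 0.32 with log2(FPKM + 1) in limma, and the cause of this gap was not tested.

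Cyp51 (NCBI Gene 13121; chr5:4080674-4104697) encodes lanosterol 14-alpha-demethylase, the first enzyme to trim lanosterol. It had 27.5, 32.4, 25.4 and 19.1 FPKM in replicates 1 to 4 of TAM-WT, against 36.6, 35.9 and 26.4 in replicates 2 to 4 of TAM-KO. By FPKM, as with Lss, TAM-KO replicates 2 and 3 were above all TAM-WT libraries and replicate 4 lay among them. On TMM-scaled counts this also held for Cyp51, but for Lss TAM-KO replicate 3 lay below TAM-WT replicates 2 and 3. It had the highest fold change of the 7 genes, a log2 value of 0.23 ± 0.16 (SE, adjusted p = 0.364), and an interval from 0.910-fold to 1.51-fold.

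Insig1 (NCBI Gene 231070; chr5:28071412-28078662) encodes the membrane protein that retains SCAP and SREBP2 in the endoplasmic reticulum. It had 44.4, 66.0, 60.2 and 40.1 FPKM in replicates 1 to 4 of TAM-WT, against 57.8, 48.3, 47.4 and 39.3 in replicates 1 to 4 of TAM-KO. Its pattern differed from that of the enzymes in TAM-WT replicate 1, which was nearly as low as replicate 4, and in TAM-KO replicates 2 and 3, which lay below TAM-WT replicates 2 and 3. Its log2 fold change was -0.24 ± 0.17 (SE, adjusted p = 0.356), and the interval ran from 0.655-fold to 1.10-fold. Insig2, its relative, which is not driven by SREBP2 in the same way, had 15.7 to 19.7 FPKM in TAM-WT and 19.9 to 24.3 in TAM-KO, and the groups did not overlap. Its log2 fold change was 0.30 ± 0.08 (SE, adjusted p = 0.0436). As a share of the FPKM of Insig1, Insig2 was 35.8%, 29.9%, 26.1% and 41.5% in replicates 1 to 4 of TAM-WT, against 39.0%, 48.6%, 51.3% and 50.6% in replicates 1 to 4 of TAM-KO. This share was not tested, and TAM-KO replicate 1 lay below TAM-WT replicate 4.

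Per length, the 7 genes kept nearly 1 order in all libraries. Insig1 was the most abundant, followed by Hmgcs1, Sqle, Cyp51, Idi1, Fdft1 and Lss in 6 of the 7 libraries that list all of them, and Sqle and Hmgcs1 changed places in TAM-WT replicate 3. Hmgcs1 and Sqle, neighbours in that order, had TAM-WT means of 37.9 ± 5.81 and 35.6 ± 6.24 FPKM (SD, n = 4). Their difference within libraries was not tested. Lss, at 8.11 ± 1.83 FPKM in TAM-WT (SD, n = 4) and 10.3 ± 1.88 in TAM-KO (SD, n = 3), was well below Fdft1, at 18.3 ± 2.71 and 20.8 ± 3.13.

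Of the 7 genes, 0 passed an adjusted p of 0.05 in edgeR's quasi-likelihood test, where 9.92% of the 12412 genes tested did, 4.63% higher and 5.29% lower in TAM-KO. The stricter call of the study, a 2-fold change as well, took 2.54% of genes and 0 of the 7. Also 0 had an unadjusted p under 0.05, beside 3806 of the 12412 genes tested. DESeq2 called 0 of the 7, beside 2257 of all genes, and limma on log2(FPKM + 1) called 0, beside 1324. The median log2 fold change of the 7 was 0.04, beside 0.00 over all genes tested. FPKM groups did not overlap for 0 of the 7, where 17.1% of genes with 4 TAM-KO libraries and 26.5% of those with 3 were separated. A test that did not reach the threshold does not show equal levels, but the intervals bound the difference: none of the 7 reached below the 0.655-fold of Insig1 or above the 1.51-fold of Cyp51. With both libraries of replicate 4 left out, a choice made after the values were seen, the log2 fold changes were 0.03 for Hmgcs1, -0.06 for Sqle, 0.11 for Idi1, 0.08 for Fdft1, 0.05 for Lss, 0.23 for Cyp51 and -0.27 for Insig1, and 0 of 7 passed.

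Of 21 sterol synthesis enzymes, the 6 above included, 1 was higher in TAM-KO, 0 were lower and 20 did not pass. That is 4.76% called, beside 9.92% of all genes tested. Their median log2 fold change was 0.08, and 16 of 21 were above 0, beside 6244 of 12412 genes tested. The enzyme that rose was Lbr, which encodes the lamin B receptor, a protein of the inner nuclear membrane that also reduces the sterol C14 double bond. It had 14.2, 13.7, 10.4 and 11.5 FPKM in replicates 1 to 4 of TAM-WT, against 18.3, 18.7, 19.4 and 15.5 in replicates 1 to 4 of TAM-KO. The groups were apart, with a log2 fold change of 0.43 ± 0.08 (SE, adjusted p = 0.0218), although the call was lost, with adjusted p values up to 0.0829, without any of TAM-WT replicates 3 and 4 and TAM-KO replicates 2 and 3. Tm7sf2, the gene for the other C14 reductase, had a log2 fold change of -0.17 (adjusted p = 0.51).

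Dhcr7, whose product makes cholesterol from 7-dehydrocholesterol, had a log2 fold change of 0.34 ± 0.13 (SE, adjusted p = 0.124), which did not pass the test, and 18.6 to 29.9 FPKM in TAM-WT against 32.5 to 37.3 in 3 TAM-KO libraries. Fdps, for farnesyl diphosphate synthase, was the most abundant of the 21, at 79.5 to 137.8 FPKM in TAM-WT and 116.8 to 148.5 in TAM-KO (log2 fold change 0.25, adjusted p = 0.317). Acat2, Mvk, Pmvk, Mvd, Msmo1, Nsdhl, Hsd17b7, Ebp, Sc5d and Tm7sf2, all for enzymes of the pathway, had log2 fold changes from -0.17 to 0.13.

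**Figure D2:**
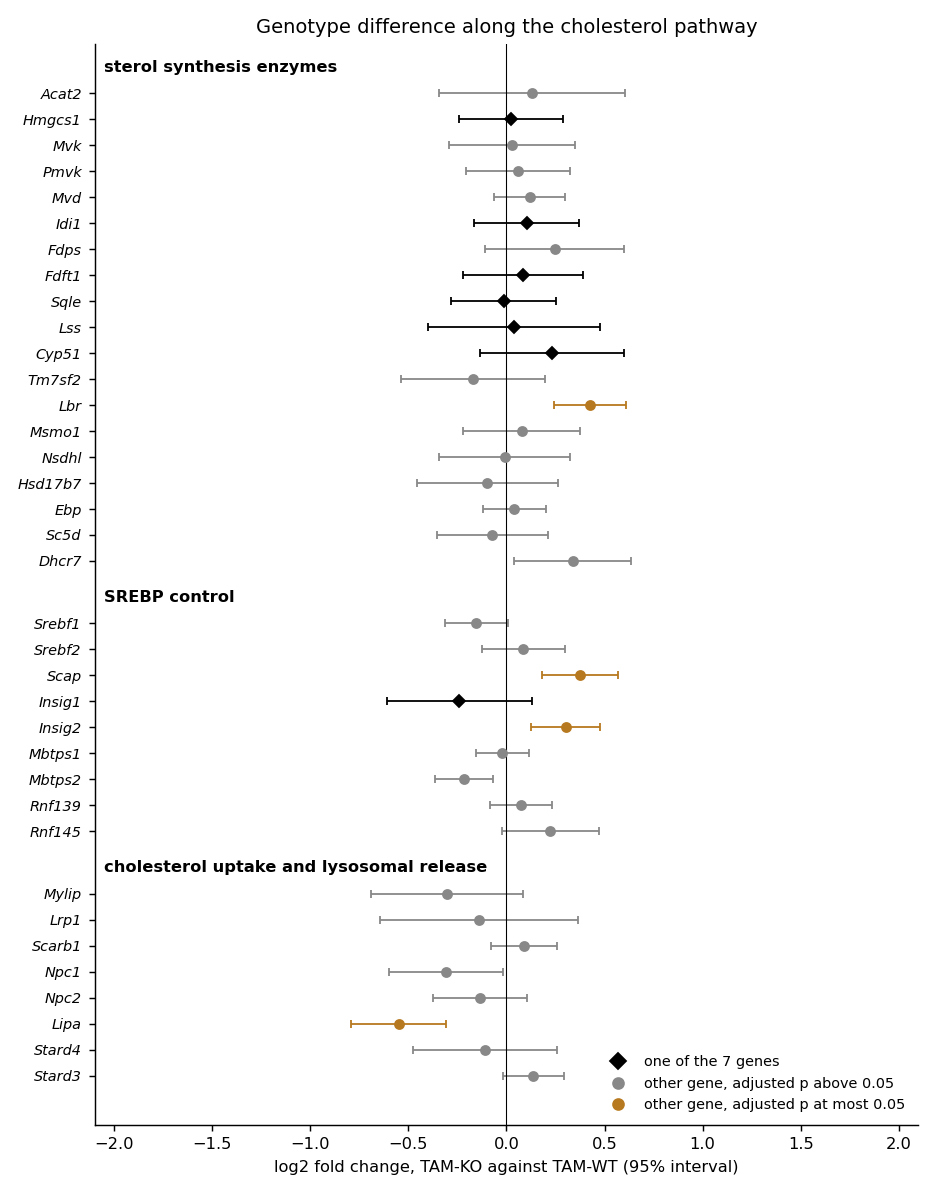
Log2 fold change of TAM-KO against TAM-WT with its 95% interval (horizontal axis) for the genes reported here of sterol synthesis in pathway order, of SREBP control, and of cholesterol uptake and lysosomal release. Black diamonds are the 7 genes, all with intervals across 0; gold points (Lbr, Scap, Insig2 and Lipa) passed an adjusted p of 0.05, and grey points did not.

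Among 10 genes that control SREBP processing, 2 were higher in TAM-KO, 0 were lower and 8 did not pass, with a median log2 fold change of 0.03. Of all genes tested, 4.63% were higher and 5.29% lower. Scap, the gene for the escort protein, had 14.4, 16.5, 12.3 and 12.1 FPKM in replicates 1 to 4 of TAM-WT, against 17.5, 20.9, 20.8 and 17.95 in replicates 1 to 4 of TAM-KO. Every TAM-KO library was above every TAM-WT library, with a log2 fold change of 0.37 ± 0.09 (SE, adjusted p = 0.0327). The other was Insig2, given above. Scap lost its call without TAM-WT replicate 3 or 4 or TAM-KO replicate 2 or 3, with adjusted p up to 0.111, and Insig2 also without TAM-WT replicate 1 or TAM-KO replicate 1, up to 0.135. Srebf2, which encodes SREBP2, had a log2 fold change of 0.08 (adjusted p = 0.582), and Srebf1, which encodes the SREBP1 forms that favor fatty acid genes, had -0.15 (adjusted p = 0.187). The proteases Mbtps1 and Mbtps2, which cut SREBPs free, had -0.02 and -0.22 (adjusted p = 0.848 and 0.0624). Rnf139 and Rnf145, which encode ubiquitin ligases of this system, had 0.07 and 0.22 and did not pass.

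Of 12 genes of cholesterol uptake and lysosomal release, 11 were tested, 0 were higher, 1 was lower and 10 did not pass, with a median log2 fold change of -0.14. The share called was 9.09%, beside 9.92% of all genes tested. The gene that fell was Lipa, for the lysosomal acid lipase that frees cholesterol from its esters. It had 191.5 to 212.5 FPKM in TAM-WT and 133.7 to 164.0 in 3 TAM-KO libraries, a log2 fold change of -0.55 ± 0.11 (SE, adjusted p = 0.0255). This call did not hold without TAM-WT replicate 3 or 4 or TAM-KO replicate 2 or 3, where adjusted p reached 0.108. Npc1 and Npc2, whose products export cholesterol from lysosomes, had -0.31 and -0.14 (adjusted p = 0.144 and 0.427). Mylip, Lrp1, Scarb1, Stard3 and Stard4, genes of receptors, their regulators and sterol carriers, had -0.30 to 0.14 and did not pass. Vldlr, for a lipoprotein receptor, had 1 to 6 counts per library and was not tested.

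Of 3 genes of cholesterol esterification 1 was lower and 0 higher in TAM-KO, beside 5.29% and 4.63% of all genes tested. Their median log2 fold change was -0.26. Soat1, for the acyltransferase that stores cholesterol as ester, had 64.5, 58.9, 72.8 and 73.8 FPKM in replicates 1 to 4 of TAM-WT, against 56.5, 49.5, 52.7 and 57.2 in replicates 1 to 4 of TAM-KO. Its log2 fold change was -0.44 ± 0.11 (SE, adjusted p = 0.0437), and it lost its call when TAM-KO replicate 1 or any of TAM-WT replicates 3 and 4 and TAM-KO replicates 2 and 3 was left out (adjusted p up to 0.14). Nceh1, which encodes the enzyme that reverses this step, had -0.26 (adjusted p = 0.192). Of 5 efflux genes, with a median of -0.31, 1 fell and 0 rose, again beside 5.29% and 4.63% of all genes tested. The gene that fell, Apoe, had a log2 fold change of -2.55 ± 0.57 (SE, adjusted p = 0.0339), and -2.89 without TAM-WT replicate 4. That call was lost without TAM-WT replicate 1 or 3 or TAM-KO replicate 2, 3 or 4, with adjusted p up to 0.13. Abca1 and Abcg1, for the LXR-driven transporters, had -0.83 and -0.31 (adjusted p = 0.14 and 0.498), and Nr1h2, for LXR-beta, had 0.02 (adjusted p = 0.8875). Nr1h3, for LXR-alpha, had 12.8 to 24.3 FPKM in TAM-WT and 23.5 to 32.9 in TAM-KO. The groups overlapped, with a log2 value of 0.58 (adjusted p = 0.0796), and 0.77 without both replicates 4 (adjusted p = 0.0486). Ch25h, the most abundant oxysterol gene, had -0.25 (adjusted p = 0.524), followed by Hsd3b7, for a bile acid enzyme, with -0.08. Of 3 tested genes of that list 0 passed, with a median of -0.08. An unadjusted p under 0.05 was reached by 0 of them, beside 3806 of 12412 genes tested.

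The fatty acid branch, which SREBP1 favors, had 2 of 10 genes higher and 0 lower, beside 4.63% and 5.29% of all genes tested. Its median log2 fold change was 0.23, and 9 of 10 were above 0, beside 6244 of 12412 genes tested. Fasn, for fatty acid synthase, had 33.5, 40.7, 27.7 and 25.3 FPKM in replicates 1 to 4 of TAM-WT, against 44.0, 59.8, 53.3 and 47.6 in replicates 1 to 4 of TAM-KO, the first of these from the table of the whole series and not in the test. Its groups were apart, with a log2 fold change of 0.65 ± 0.14 (SE, adjusted p = 0.0303). Acaca, for acetyl-CoA carboxylase, rose by 0.36 ± 0.08 on the log2 scale (SE, adjusted p = 0.0313), and both lost their calls without TAM-WT replicate 3 or 4 or TAM-KO replicate 2 or 3 (adjusted p up to 0.118). Of 9 genes of the isoprenoid branch, 0 passed in either direction by edgeR, and the median was -0.13. An unadjusted p under 0.05 was reached by 0 of the 9, beside 3806 of 12412 genes tested. Nus1 and Fnta, the most abundant of that branch, had -0.13 and -0.15. Of 10 proliferation genes, with a median of -0.04, 1 passed, or 10%, beside 9.92% of all genes tested. It was Pcna, which encodes the replication clamp and fell by 0.34 on the log2 scale (adjusted p = 0.0338). That call was lost without TAM-WT replicate 1, 3 or 4 or TAM-KO replicate 2 or 3 (adjusted p up to 0.106). Birc5, for survivin, had 0.12 (adjusted p = 0.582). Of the 9 genes of these lists that passed, Lbr, Lipa and Apoe also did so without both replicates 4 (adjusted p = 0.0467, 0.0439 and 0.00239), while Scap, Insig2, Soat1, Acaca, Fasn and Pcna did not.

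The 7 genes shared a low level in replicate 4 of each genotype, although the pattern of Insig1 otherwise differed from that of the enzymes. On CPM, counts divided by the library size, scaled by TMM, TAM-WT replicate 4 was at 78.0% of the mean of the other 3 TAM-WT libraries for Hmgcs1, 72.7% for Sqle, 77.3% for Idi1, 74.3% for Fdft1, 63.4% for Lss, 69.4% for Cyp51 and 72.5% for Insig1. TAM-KO replicate 4 was at 76.8%, 83.9%, 74.0%, 80.9%, 70.7%, 76.6% and 80.5% of the other TAM-KO libraries, in the same order. The median over all genes tested was 99.87% for TAM-WT, and 99.25% for TAM-KO. For 7 of 7 genes replicate 4 was the lowest library of both groups, beside 10.7% of all genes tested. This was seen in the values and is given as a description, with no test.

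**Figure D3:**
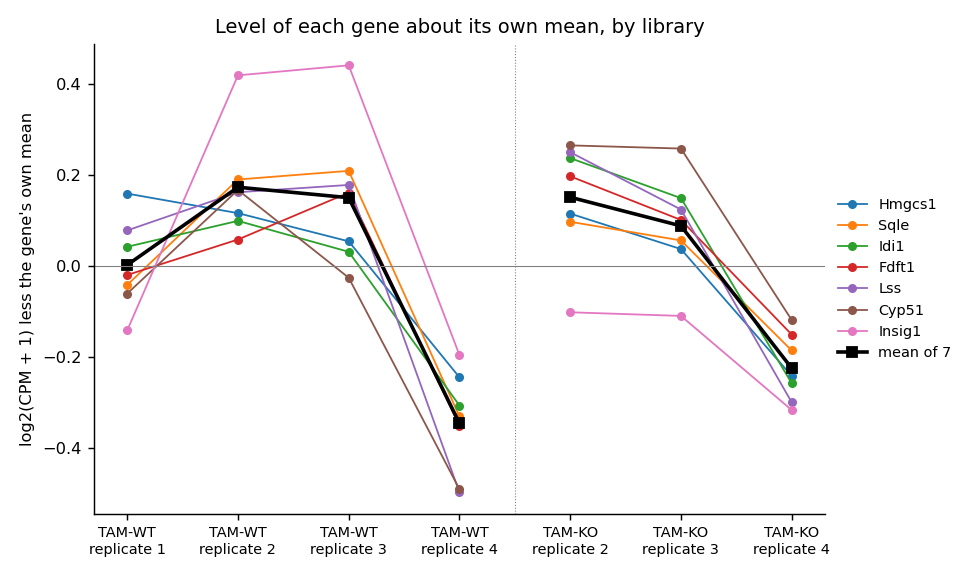
Level of each of the 7 genes as log2(CPM + 1) less the mean of that gene over the 7 libraries that list all of them (vertical axis), by library, with their mean in black. All lines drop at replicate 4 of both genotypes, where the mean is -0.34 in TAM-WT and -0.22 in TAM-KO. Insig1 stands apart above the others in TAM-WT replicates 2 and 3 and below them in TAM-KO replicates 2 and 3.

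Other sterol enzymes had the same pattern. Of 15 that were not among the 7, 9 were lowest in replicate 4 of both groups, among them Acat2, Mvk, Pmvk, Fdps, Msmo1, Nsdhl, Hsd17b7 and Sc5d. Of 11 uptake genes 3 were, among them Stard4, for a carrier that moves cholesterol between membranes, which was at 68.5% of the other libraries in TAM-WT and at 76.0% in TAM-KO. In the fatty acid list 9 of 10 genes were, but only Insig1 of the 10 SREBP control genes, and Srebf2 was at 76.5% in TAM-WT and at 102.1% in TAM-KO.

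Abca1, Abcg1 and Mylip, targets of the LXRs, were high in the same libraries. Abca1 and Abcg1 were named after their values were seen. Abca1 was at 165.9% of the other libraries in TAM-WT replicate 4 and at 198.5% in TAM-KO replicate 4. Abcg1 was at 193.2% and 129.2%, and Mylip at 151.5% and 130.5%. These 3 genes were the highest in replicate 4 of both groups, as were Lrp1, Npc2 and Stard3, beside 9.39% of all genes tested. Apoe, also an LXR target, did not share this: it was at 16.5% in TAM-WT replicate 4 and at 102.3% in TAM-KO replicate 4. Of the 5 efflux genes, 2 were highest in replicate 4 of both groups. LXR targets were not examined as a set, and a part of the LXRs in this pattern was not tested.

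**Figure D4:**
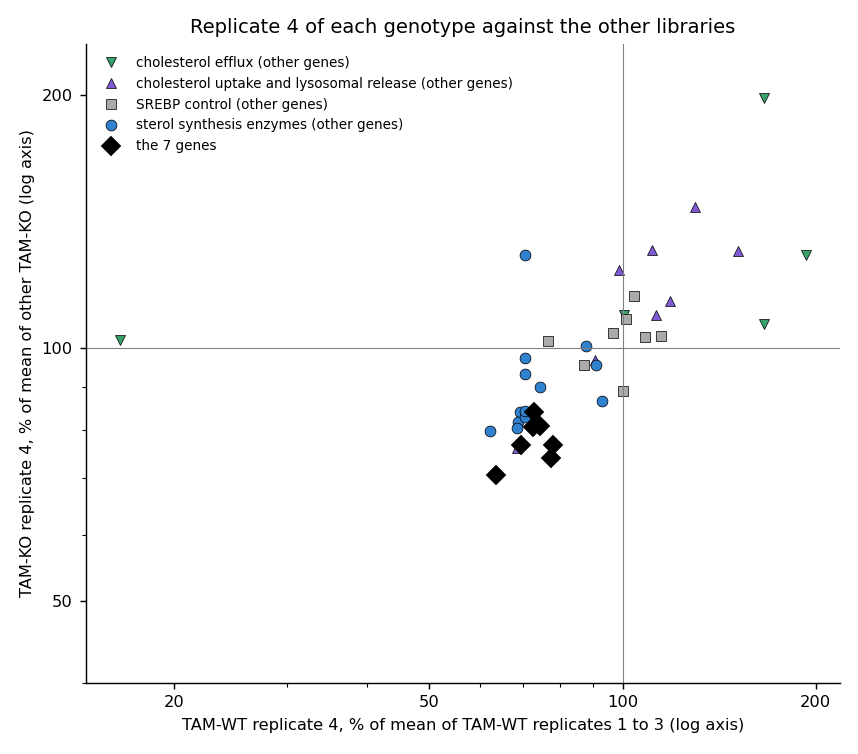
TMM-scaled CPM in replicate 4 as a percent of the mean of the other libraries of its group, in TAM-WT (horizontal, log axis) and TAM-KO (vertical, log axis), with grey lines at 100%; each point is a gene of the named lists that is reported here. The 7 genes (black) lie at 63.4% to 78.0% by 70.7% to 83.9%, with most other sterol enzymes beside them, while Abca1 and Abcg1 (green) lie above 100% on both axes and Apoe at 16.5% by 102.3%.

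The melanoma markers were at a median of 70.6% in TAM-WT replicate 4 and 83.9% in TAM-KO replicate 4. Their summed level was 2640, 4382, 2010 and 1958 FPKM in replicates 1 to 4 of TAM-WT, where the mean of the 7 genes about their own means was 0.00, 0.17, 0.15 and -0.34 on the log2 scale. In replicates 2 to 4 of TAM-KO it was 5057, 4742 and 3817 FPKM, and the mean of the 7 genes was 0.15, 0.09 and -0.22. Proliferation genes were at a median of 89.1% and 89.99% in replicate 4 of TAM-WT and TAM-KO, and macrophage markers at 111.5% and 106.5%. T cell and NK cell markers summed to 30.6, 2.29, 3.62 and 2.79 FPKM in replicates 1 to 4 of TAM-WT, and to 100.4, 81.4 and 31.6 in replicates 2 to 4 of TAM-KO. In TAM-KO replicate 4 their median was 38.8% of the other TAM-KO libraries, and 8 of 9 tested were lowest there, whereas 0 of 9 were lowest in TAM-WT replicate 4, where the median was 12.2%. The part of other cells in the replicate 4 pattern was not tested.

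Genes most like the 7 were sought across 10373 genes with a mean of at least 5 CPM. Each was compared with the mean of the 7 over the 7 complete libraries by the root mean square difference of centred log2(CPM + 1), which was 0.24 for the median gene. Among genes of the lists that were not among the 7, Sc5d stood at rank 6 and Stard4 at rank 7, both with 0.07. Nsdhl, Msmo1 and Hsd17b7 stood at ranks 9, 10 and 11. Outside the lists, the 5 closest genes were Fra10ac1 (0.053), Cenpk (0.06), Rab11fip4, Jade2 and Arl6 (each 0.09), with log2 fold changes between genotypes from -0.01 to 0.18, none of which passed the test. Of the 7 themselves, which make up the mean, Sqle was closest at 0.04 and Insig1 farthest at 0.21 and rank 3073, while Lbr stood at 0.26, farther from the mean than the median gene.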

How the data were processed

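RNA of CD45+F4/80+ cells of 4 WT and 4 Colec11-/- mice was sequenced on the BGISEQ-500 platform, with 1 library per mouse. The submitters' processing notes name GRCm38.p6, HISAT2 2.0.4, Bowtie2 2.2.5 and RSEM 1.2.12. The authors deposited expected counts, RSEM estimates with decimals and no normalization, and FPKM values that the authors made relative to gene length and mapped reads. The deposited log2 ratios, p-values and q-values of the authors' comparison of the groups were not used.

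In the table of TAM-KO replicate 1, 629 values of genes that had none in the remaining 7 tables and 1 value unlike the table of the whole series were not used, which left 12572 genes with 8 libraries. Where the table of the whole series lists the gene, its FPKM was used in the means but not in the test. After rounding, expected counts were filtered by filterByExpr, scaled by TMM and tested by the quasi-likelihood test of edgeR 4.0.16 (glmQLFit, glmQLFTest) under R 4.3.3, and p-values were adjusted by Benjamini-Hochberg across all tested genes. Of 12412 genes, 9396 were fitted on 8 libraries and 3016, without a usable value in TAM-KO replicate 1, on 7. One line of the TAM-KO replicate 2 table lacked its gene ID, which was taken from another ID column. The script was tested on simulated counts. Intervals are 95% intervals of the fitted fold change. The p-values set each genotype difference against the spread between these libraries, and the standard errors include counting error at this depth.

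Alternatives were DESeq2 1.42.0 (size factors, or its Wald test), total-read scaling, limma 3.58.1 on log2(FPKM + 1) or log2(FPKM + 0.1), a minimum of 10 counts in every library or none, a replicate block, each library left out, 7 libraries only, filling of TAM-KO replicate 1, and an adjusted p of 0.01. Leaving out both replicates 4 was added after the data were seen. Named genes were the 7, all genes of the synthesis, SREBP control and uptake lists, in other lists those past an adjusted p of 0.05 or, with fewer than 2, the most abundant up to 2, and the 5 genes outside the lists most like the 7. Genes outside this rule, such as Abca1, Abcg1 and Nr1h3, were chosen after their values were seen. The 7 genes and all lists were chosen with earlier results of these data known. Some genes of the lists count in their totals but are not reported here by name. Promoters are from RefSeq.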

Additional observations from a re-analysis of the deposited data

Results flagged for a closer look

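In each group of 4 libraries, the highest or lowest value was marked where its gap to the nearest other value took an unusually large share of the group's range (Dixon's 95% limit). Over 76 such groups of pathway genes, 4 values were marked, and chance marks about 1 group in 20, or 3.8 here. All 4 were low values of replicate 4. Fdft1, for squalene synthase, had 14.26 FPKM in TAM-WT replicate 4, with the nearest TAM-WT library at 19.27. Hsd17b7, for a sterol C3 ketoreductase, had 3.64 FPKM in TAM-WT replicate 4 against 5.42. Sc5d, for the sterol C5 desaturase, had 13.07 FPKM in TAM-KO replicate 4 against 16.54. Apoe had 497.2 FPKM in TAM-WT replicate 4 against 2886.32 in the nearest other TAM-WT library.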

How the results depend on the processing

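The fit on 7 libraries is the same as that without TAM-KO replicate 1. In all 20 fits, with that 1 counted under both names, 0 of the 7 genes passed. The lowest adjusted p of any was 0.13, for Cyp51 with the replicate block (unadjusted 0.032). The count of genes past an adjusted p of 0.05, 1231 as designed, was 2257 by DESeq2, 682 on 7 libraries, 411 without both replicates 4 and 36 at an adjusted p of 0.01. It ranged from 77 to 2755 when 1 library was left out: 2755 without TAM-WT replicate 2, 151 without TAM-WT replicate 3, 416 without TAM-WT replicate 4, and, for TAM-KO, 682 without replicate 1 and 77 without replicate 2 or 3. Of 1231 calls 575 were higher in TAM-KO, against 870 of 1350 with total-read scaling, 916 of 1324 with log2(FPKM + 1) and 877 of 1283 with log2(FPKM + 0.1). In these 3 fits the median log2 fold change of all genes was 0.09, 0.09 and 0.11, against 0.002 as designed. Directions turned for Sqle (0.069 with total reads, 0.10 and 0.11 with FPKM) and for Hmgcs1 on 7 libraries (-0.052). With 1 library left out, log2 fold changes ran from -0.056 to 0.11 for Hmgcs1, from -0.11 to 0.057 for Sqle, from 0.02 to 0.20 for Idi1, from -0.011 to 0.18 for Fdft1, from -0.10 to 0.19 for Lss, from 0.12 to 0.35 for Cyp51 and from -0.34 to -0.13 for Insig1. The replicate block gave 1080 calls and lost those of Insig2, Apoe and Pcna (adjusted p = 0.0585, 0.0818 and 0.0521). Same-numbered libraries correlated at -0.37, 0.04, -0.26 and 0.28, so the numbers were not taken as pairs. The other called list genes lost calls mainly when a library was left out, Soat1 also with TAM-KO replicate 1 filled (0.0503), Apoe and Pcna also in limma, and Pcna with total-read scaling (0.0548). The causes were not tested. Of the 7 genes, the interval of Cyp51 reached up to 1.51-fold and that of Insig1 down to 0.655-fold. Those of the others lay within 0.758-fold to 1.39-fold, the interval of Lss. Differences inside these intervals were not resolved with 3 or 4 libraries a group.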
